A study of Mus musculus with 16 samples.

Results

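The cytosolic ribosomal protein genes were taken as every measured gene whose symbol is Rpl or Rps followed by a number and at most a short letter or paralog suffix, together with Rplp0, Rplp1 and Rpsa, and without the Rps6k kinases. This rule found 63 genes among the 19505 genes that the platform annotation names, each with a single probe set. Of these, 39 encode proteins of the large (60S) subunit and 24 encode proteins of the small (40S) subunit or their near copies. Another 26 mouse gene symbols that fit the rule, such as Rplp2, Rpl10 and Rps27, were not analysed here.

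The subunits of the ribosome are built from ribosomal RNAs and these proteins, starting in the nucleolus, and they join in the cytoplasm. The 60S subunit forms peptide bonds, and the 40S subunit reads the messenger RNA. Ribosomal protein mRNAs are abundant, are made in parallel and carry a pyrimidine tract at their start through which translation is controlled by the growth-sensing kinase mTOR. In the olfactory epithelium, dividing basal progenitors and growing immature neurons precede the long-lived mature olfactory sensory neurons, and growing cells in general make more ribosomes than resting ones.

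The RNA came from olfactory mucosa cells of S100a5-tauGFP mice on C57BL/6, sorted by fluorescence. In this line the tauGFP reporter is expressed from the S100a5 gene, which encodes a calcium-binding protein whose expression in olfactory sensory neurons rises with stimulation. The 24 mice, of both sexes and 7 to 12 weeks old, each spent 40 hours in a clean-air chamber at a flow of 3.1 L per minute and, after the first 26 hours, received pulses of 10 seconds every 20 minutes. The pulses held isoamyl acetate, an ester with the smell of banana (odor), or filtered air (vehicle), and mice were pooled by 3. The 8 pools were each split by fluorescence into 2 libraries, titled GFP+ and GFP-, which makes 4 groups of 4 arrays: odor titled GFP+, odor titled GFP-, vehicle titled GFP+ and vehicle titled GFP-. All 4 groups carry the reporter, and a replicate is a separate pool of mice.

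The values are deposited log2 signals of Clariom S mouse arrays, on which a difference of 1 is a factor of 2. The number of arrays limits the precision. The cell type field and the title contradict each other on the GFP sign in all 16 samples, and S100a5 was lower in titled GFP+ libraries, at 15.49 ± 0.31 in odor titled GFP+ against 16.75 ± 0.18 in odor titled GFP- (SD, n = 4 each). The difference was -1.25 (SE 0.21, limma adjusted p = 0.000222), and in vehicle pools it was -1.18 (SE 0.21, limma adjusted p = 0.000442). Groups are therefore called by title. The array medians were also apart by sort, at 6.79 to 6.90 in libraries titled GFP+ and 6.42 to 6.52 in libraries titled GFP-. For this reason each sort difference, always titled GFP+ minus titled GFP-, is given as deposited and after each array was centred on its own median. In bulk samples, fewer cells of a type and less RNA per cell cannot be told apart.

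The titled sort also parted markers of other cells. The 12 macrophage and neutrophil markers were all called higher in titled GFP+ under odor and under vehicle. Their mean signal per library was 13.00 to 14.74 in odor titled GFP+ against 5.82 to 7.32 in odor titled GFP-, and 13.23 to 13.93 in vehicle titled GFP+ against 5.75 to 6.92 in vehicle titled GFP-. In titled GFP- libraries of both treatments Camp, an antimicrobial peptide of neutrophils, and Itgam, an integrin of myeloid cells, did not exceed the negative controls. All 9 measured progenitor and cell cycle markers were called higher too, although Cdk1 and Neurog1 did not exceed the negative controls in any group, with library means of 7.97 to 8.70 in odor titled GFP+ against 5.50 to 5.74 in odor titled GFP-, and 8.06 to 8.70 in vehicle titled GFP+ against 5.51 to 5.70 in vehicle titled GFP-. Of 11 immature neuron markers, 6 were called higher under odor and 7 under vehicle, with library means of 11.91 to 12.69 in odor titled GFP+ against 10.18 to 10.22 in odor titled GFP-, and 12.31 to 12.78 in vehicle titled GFP+ against 10.11 to 10.39 in vehicle titled GFP-. The 14 mature neuron markers were high in every library, at 15.64 to 15.97 in odor titled GFP+ against 16.09 to 16.20 in odor titled GFP-, and 15.87 to 16.004 in vehicle titled GFP+ against 16.09 to 16.21 in vehicle titled GFP-. In both treatments 0 of these 14 were called higher and 3 were called lower: Ano2, a chloride channel of the transduction cascade, at -0.51 under odor and -0.45 under vehicle, Ckb, a creatine kinase, at -0.45 and -0.44, and Pde1c, a phosphodiesterase of the cilia, at -0.84 and -0.66. Under odor and vehicle alike, 7 of 7 sustentacular, 5 of 5 microvillar and 2 of 2 erythroid markers were called higher, lymphocyte markers in 6 of 7 under odor and 7 of 7 under vehicle, horizontal basal cell markers in 0 of 3 (limma, with 0 at an unadjusted p under 0.05), and endothelial and fibroblast markers in 1 of 5 under odor and 0 of 5 under vehicle (limma, with 0 at an unadjusted p under 0.05 there). The lymphocyte marker Cd3g did not exceed the negative controls in any group. Nor did the horizontal basal cell markers Krt5 and Trp63, or Cdh5, Col1a2 and Col3a1 of the endothelial and fibroblast list. Krt14, the other horizontal basal cell marker, did not exceed them in titled GFP- libraries. For markers under the controls, the absence of a call does not show equal levels. The part of these cell types in the ribosomal protein differences was not tested.

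Ribosomal protein genes were higher in libraries titled GFP+ as deposited. Under odor 32 of the 63 were called higher and 0 lower (limma, Benjamini-Hochberg adjusted p under 0.05), against 11% of all 22206 tested probe sets called higher and 9.86% called lower. Under vehicle 30 were called higher and 0 lower, against 10.2% of all probe sets higher and 7.16% lower. Unadjusted, 42 were higher and 1 lower at p under 0.05 with odor, and 43 higher and 2 lower with vehicle. The median difference of the members was 0.42 under odor and 0.44 under vehicle, while the median over all probe sets was -0.14 and -0.13. The difference was positive for 58 of 63 members under odor and for 59 under vehicle. Of the called genes, 26 were called higher in both treatments, 6 under odor alone (Rpl8, Rpl28, Rpl35a, Rps4x, Rps7 and Rps19) and 4 under vehicle alone (Rpl14, Rpl17, Rpl35 and Rps23), and a test of the difference between treatments called none of them.

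Centring the arrays on their medians changed the counts. After centring, 6 members were called higher and 6 lower under odor, against 8.44% of all probe sets higher and 61.6% lower, and 11 were called higher and 4 lower under vehicle, against 7.93% higher and 62.5% lower. The members' median was then 0.05 under odor and 0.07 under vehicle, beside a median over all probe sets of -0.50 in each. The members' median lay above that of all probe sets by 0.56 under odor and by 0.57 under vehicle, a distance that centring leaves in place by construction because it subtracts 1 constant from each array. The members called higher in both treatments after centring were Rplp0, Rps16, Rps9, Rpl31 and Rps26. Those called lower in both were Rps27l, Rpl22l1, Rpl39l and Rpl3l, of which the last pair did not exceed the negative controls.

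**Figure D1:**
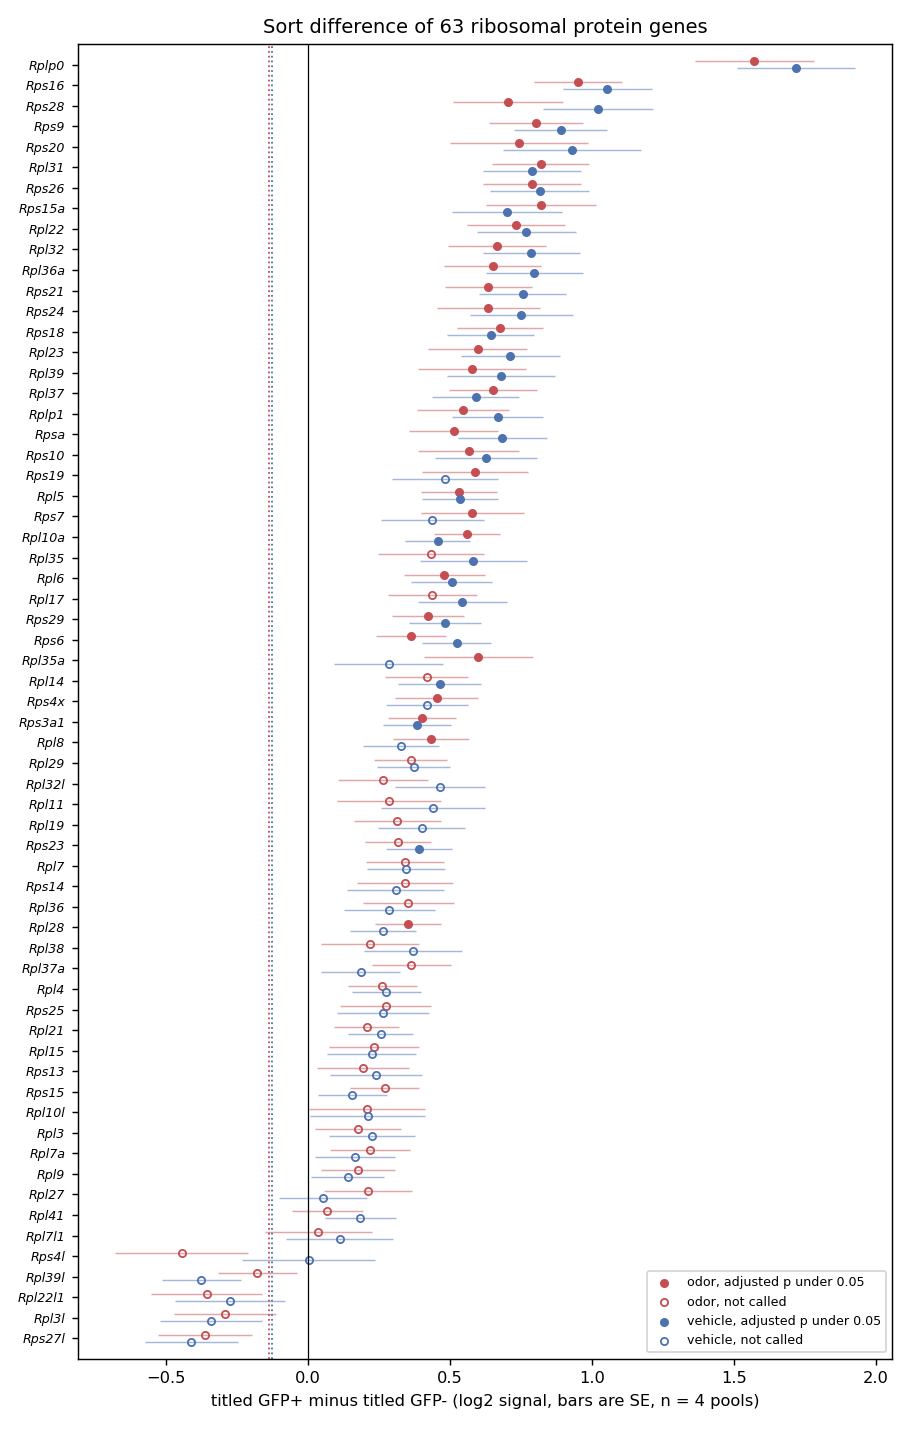
Sort difference of each of the 63 ribosomal protein genes, on the x axis as titled GFP+ minus titled GFP- in log2 signal as deposited, with odor (red) above vehicle (blue) in each row, bars for the SE and dotted lines for the median over all probe sets. Filled points, 32 under odor and 30 under vehicle, passed an adjusted p of 0.05, and all of them lie to the right of 0, with Rplp0 farthest.

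The shift could be followed pool by pool. The median member was higher in titled GFP+ by 0.60, 0.64, 0.24 and 0.20 in odor pools 1 to 4, and by 0.58, 0.33, 0.34 and 0.49 in vehicle pools 1 to 4. Between 49 and 59 of the 63 members were higher in titled GFP+ in each pool, and 39 were higher in 8 of 8 pools. These pool counts were not made over all probe sets, so they stand without a share for comparison. After subtracting the difference between the array medians of the pool, the median member stood at 0.23, 0.16, -0.06 and -0.11 in the odor pools and at 0.17, -0.05, 0.03 and 0.11 in the vehicle pools. On that scale the sign of the median member was not shared by the pools. The subtracted values, 0.30 to 0.48, are differences between array medians and not the shift of a typical probe set. By another measure, the median signal of the members minus the array median, titled GFP+ was the lower only in odor pool 4. It had 6.10 there against 6.12 in titled GFP-. As deposited, the middle one of all 22206 differences was -0.14 under odor and -0.13 under vehicle. The median member lay above it by 0.56 and 0.57.

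The level of the members as a set differed among libraries of 1 group as well. Their median signal was 13.28, 12.92, 12.63 and 12.93 in odor titled GFP+ libraries 1 to 4, against 12.50, 11.96, 12.29 and 12.64 in odor titled GFP- libraries. It was 13.09, 12.72, 12.87 and 12.86 in vehicle titled GFP+ libraries, against 12.17, 12.33, 12.25 and 12.13 in vehicle titled GFP- libraries. The vehicle groups did not overlap, whereas the lowest odor titled GFP+ library lay just under the highest odor titled GFP- library. In odor titled GFP+ library 1, 57 of 63 members lay above the mean of their group, and in odor titled GFP- library 2 only 5 did. Without odor pool 1 the count of members called higher under odor was 12 and without odor pool 2 it was 11, while without vehicle pool 1 or 4 the count under vehicle was 14 or 17.

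**Figure D2:**
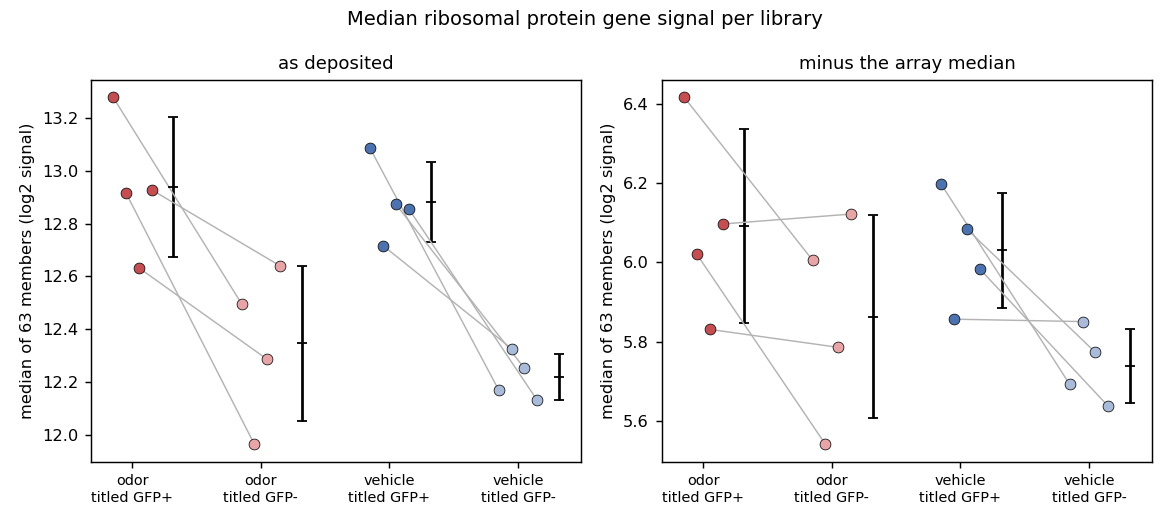
Median log2 signal of the 63 ribosomal protein genes in each library (points, with grey lines joining the libraries of a pool and bars for the group mean ± SD, n = 4), as deposited on the left and minus the array median on the right. As deposited the titled GFP+ libraries stood higher in 8 of 8 pools, and after centring the odor groups overlapped and the vehicle groups came within 5.86 and 5.85.

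Libraries of a group that were high for 1 member tended to be high for others. Over the 60 members above the negative controls in all 16 libraries, the deviations from group means had a median pairwise correlation of 0.63, and 92.7% of 1770 pairs were positive. For 76 mitochondrial ribosomal protein genes, which serve the separate ribosome inside mitochondria, the median was 0.11, with 60.5% of 2850 pairs positive. These 76 were not filtered by the negative controls, and Mrpl54 and Mrpl36 did not exceed them in any group. Their mean signal per library was 9.25 to 9.71, against 12.04 to 13.00 for the 63 members, so the correlations of the sets are not like for like. These correlations describe 16 libraries, in which the genes share arrays and scaling.

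By subunit, 17 of 24 genes of the 40S subunit were called higher under odor and 15 under vehicle, with median differences of 0.54 and 0.50. Among 39 genes of the 60S subunit, 15 were called higher in each treatment, with medians of 0.35 under odor and 0.37 under vehicle. The difference between the subunits was not tested. As deposited, the median difference was 0.29 under odor and 0.27 under vehicle for 8 members with a mean log2 signal over 15, and 0.51 and 0.47 for 21 members under 12 and above background. After centring it was -0.08 under odor and -0.10 under vehicle for those 8, and 0.15 and 0.09 for those 21.

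The P stalk recruits translation factors to the 60S subunit. Rplp0, its base, had the largest sort difference of all members. Its log2 signal was 12.34, 12.34, 11.28 and 11.81 in odor titled GFP+ libraries 1 to 4, against 10.60, 10.41, 10.29 and 10.18 in odor titled GFP- libraries. In vehicle titled GFP+ libraries it was 12.18, 11.81, 11.70 and 11.89, against 9.82, 10.32, 10.30 and 10.27 in vehicle titled GFP- libraries. No titled GFP+ library overlapped the titled GFP- libraries in either treatment. The difference was 1.57 under odor (SE 0.21, limma adjusted p = 2.12e-05) and 1.72 under vehicle (SE 0.21, limma adjusted p = 8.57e-06), a fold of 2.97 and 3.29. After centring it was 1.21 and 1.35, and it was called in both.

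Rplp1, an acidic protein that binds Rplp0 in the stalk, was called in both treatments too. Its signal was 15.52, 15.26, 14.93 and 14.86 in odor titled GFP+ libraries, against 14.79, 14.41, 14.51 and 14.67 in odor titled GFP- libraries, and the groups did not overlap. The difference was 0.55 (SE 0.16, limma adjusted p = 0.0225) under odor and 0.67 (SE 0.16, limma adjusted p = 0.00689) under vehicle. Without odor pool 1 or 2 the odor difference was not called (limma adjusted p = 0.0714 and 0.131). After centring the differences were 0.18 under odor and 0.30 under vehicle, neither called. Rpsa, a 40S protein that also serves as a laminin receptor at the cell surface, had differences of 0.51 (SE 0.16, limma adjusted p = 0.0282) under odor and 0.68 (SE 0.16, limma adjusted p = 0.00489) under vehicle. Its groups overlapped under odor, where the lowest titled GFP+ library had 11.98 against 11.99 in the highest titled GFP- library, and not under vehicle. The odor call was lost without odor pool 1, 2 or 3 (limma adjusted p between 0.0769 and 0.115), and neither difference was called after centring.

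Among 40S genes, Rps16, Rps9 and Rps26 were called on either scale in both treatments. Rps16, whose protein reaches into the decoding region, had a signal of 12.75, 12.44, 12.18 and 12.43 in odor titled GFP+ libraries, against 11.65, 11.10, 11.39 and 11.86 in odor titled GFP- libraries. Vehicle titled GFP+ libraries had 12.64, 12.42, 12.49 and 12.44, against 11.41, 11.37, 11.56 and 11.44 in vehicle titled GFP- libraries. The groups did not overlap, and the difference was 0.95 (SE 0.16, limma adjusted p = 0.000202) under odor and 1.06 (SE 0.16, limma adjusted p = 7.34e-05) under vehicle, or 0.59 and 0.68 after centring.

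Rps9, a protein of early 40S assembly, had a signal of 13.26, 13.11, 12.53 and 13.07 in odor titled GFP+ libraries, against 12.42, 11.94, 12.16 and 12.23 in odor titled GFP- libraries. It had 13.32, 12.87, 12.96 and 12.92 in vehicle titled GFP+ libraries, against 12.07, 12.33, 12.15 and 11.95 in vehicle titled GFP- libraries. The lowest titled GFP+ library again lay above the highest titled GFP- library in both treatments. The difference was 0.80 under odor and 0.89 under vehicle (SE 0.16 in each, limma adjusted p = 0.00166 and 0.000681), or 0.44 and 0.52 after centring.

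Rps26, a 40S protein near the mRNA exit channel, had a signal of 12.85, 12.92, 12.48 and 12.61 in odor titled GFP+ libraries, against 12.18, 11.82, 11.79 and 11.92 in odor titled GFP- libraries. Vehicle titled GFP+ libraries had 13.05, 12.29, 12.94 and 12.72, against 11.82, 12.28, 11.88 and 11.76 in vehicle titled GFP- libraries. The groups were apart in both treatments, under vehicle by a narrow gap between titled GFP+ library 2 and titled GFP- library 2. The difference was 0.79 under odor and 0.82 under vehicle (SE 0.17 in each, limma adjusted p = 0.00304 and 0.00250), or 0.42 and 0.44 after centring. With the pool as a block as well as centring, the odor difference missed the threshold (limma adjusted p = 0.0564).

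Rps28 and Rps20 were called in both treatments as deposited. Rps28, another protein of the mRNA exit site, had a signal of 11.59, 11.17, 10.89 and 10.72 in odor titled GFP+ libraries, against 10.28, 10.13, 10.35 and 10.78 in odor titled GFP- libraries. The odor groups overlapped through pool 4, in which the titled GFP- library was the higher. The difference was 0.70 (SE 0.19, limma adjusted p = 0.0156) under odor and 1.02 (SE 0.19, limma adjusted p = 0.000947) under vehicle, where the groups were apart. Without odor pool 1 or 2 the odor difference was not called (limma adjusted p = 0.125 and 0.0975). Rps20, a protein of the 40S head, had 12.02, 10.98, 10.84 and 11.05 in odor titled GFP+ libraries, against 10.81, 10.00, 10.28 and 10.83 in odor titled GFP- libraries. The odor groups met at 10.84 in titled GFP+ library 3 and 10.83 in titled GFP- library 4. The difference was 0.74 (SE 0.24, limma adjusted p = 0.0384) under odor and 0.93 (SE 0.24, limma adjusted p = 0.0122) under vehicle. Its odor call was lost without odor pool 1, 2 or 3 or vehicle pool 2, 3 or 4 (limma adjusted p between 0.0506 and 0.110), and its vehicle call without vehicle pool 1 or 4 (0.0584 and 0.0711). After centring, both genes were called under vehicle, at 0.65 for Rps28 and 0.56 for Rps20, and neither was called under odor.

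Rpl31, a protein at the rim of the peptide exit tunnel, was the other 60S gene besides Rplp0 that was called on either scale in both treatments. Its signal was 15.15, 14.67, 14.42 and 14.66 in odor titled GFP+ libraries, against 13.95, 13.45, 13.92 and 14.30 in odor titled GFP- libraries. It was 14.83, 14.68, 14.65 and 14.73 in vehicle titled GFP+ libraries, against 13.86, 13.94, 14.10 and 13.83 in vehicle titled GFP- libraries, and in neither treatment did the groups overlap. The difference was 0.82 under odor and 0.79 under vehicle (SE 0.17 in each, limma adjusted p = 0.00211 and 0.00315), or 0.45 and 0.42 after centring.

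**Figure D3:**
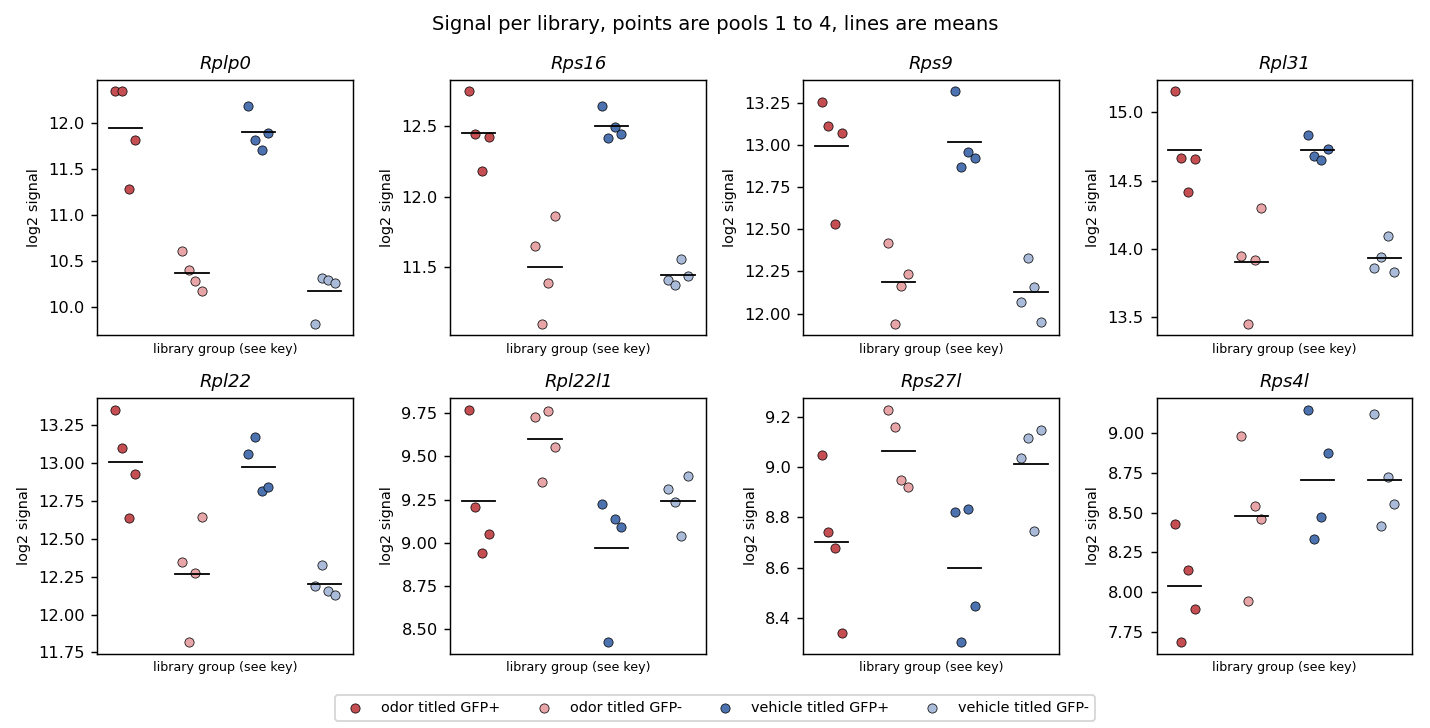
Log2 signal as deposited in each library (points, pools 1 to 4 from left to right, with lines for group means) of 8 ribosomal protein genes, by group as in the key. Rplp0, Rps16, Rps9 and Rpl31 show no overlap between titled GFP+ and titled GFP- libraries of a treatment, whereas Rpl22l1, Rps27l and Rps4l overlap.

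The remaining called genes had smaller differences. Over the 26 members called in both treatments the lowest was 0.36 under odor, for Rps6, the 40S protein phosphorylated by the S6 kinases, and 0.39 under vehicle, for Rps3a1. The groups of 4 did not overlap, with titled GFP+ above, for 29 of 63 members under odor, against 10.5% of all probe sets, and for 44 under vehicle, against 11.3%. With titled GFP+ below they did not overlap for 0 members under odor and for 1 under vehicle (Rpl39l, under background), against 11.3% and 12% of all probe sets. Toward the other end, Rpl41, which encodes the smallest ribosomal protein, had differences of 0.07 (SE 0.12) under odor and 0.18 (SE 0.12) under vehicle and was called in neither as deposited. After centring, Rpl41 had -0.30 under odor (limma adjusted p = 0.0422), where it was called lower, and -0.19 under vehicle (limma adjusted p = 0.177), where it was not.

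Promoters are shown for the 5 genes called higher in both treatments as deposited and after centring, whatever letters they hold, and for Rpl22l1, which was called lower after centring. Sequences are from RefSeq (GRCm38.p6), 5′ to 3′ on the gene's strand, from 150 bases before the annotated start through the first 20 bases from it. They lie at chr5:115559317-115559486 on the plus strand for Rplp0, chr7:28350539-28350708 on the plus strand for Rps16, chr7:3703891-3704060 on the plus strand for Rps9, chr1:39367701-39367870 on the plus strand for Rpl31, chr10:128626487-128626656 on the minus strand for Rps26 and chr3:28805358-28805527 on the plus strand for Rpl22l1. Capitals mark the letters CGGAAG, the core bound by ETS family factors, or CTCTTTC, a pyrimidine run of the kind found at ribosomal protein starts.
Rplp0: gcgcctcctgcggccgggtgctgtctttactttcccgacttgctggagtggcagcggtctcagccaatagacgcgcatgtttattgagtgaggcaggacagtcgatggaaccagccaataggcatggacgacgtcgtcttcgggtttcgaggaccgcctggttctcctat
Rps16: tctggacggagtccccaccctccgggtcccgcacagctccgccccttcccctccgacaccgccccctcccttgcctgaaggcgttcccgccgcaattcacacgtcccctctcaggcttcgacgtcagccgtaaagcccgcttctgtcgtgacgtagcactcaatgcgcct
Rps9: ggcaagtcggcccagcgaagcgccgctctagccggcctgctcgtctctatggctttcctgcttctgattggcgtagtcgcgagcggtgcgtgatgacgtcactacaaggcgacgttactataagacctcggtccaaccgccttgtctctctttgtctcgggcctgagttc
Rpl31: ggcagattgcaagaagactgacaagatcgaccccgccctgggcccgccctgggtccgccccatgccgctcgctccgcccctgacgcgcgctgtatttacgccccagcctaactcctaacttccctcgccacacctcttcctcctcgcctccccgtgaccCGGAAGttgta
Rps26: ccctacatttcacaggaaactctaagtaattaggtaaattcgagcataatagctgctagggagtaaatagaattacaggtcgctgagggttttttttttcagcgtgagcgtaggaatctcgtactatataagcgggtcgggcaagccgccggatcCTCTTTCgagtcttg
Rpl22l1: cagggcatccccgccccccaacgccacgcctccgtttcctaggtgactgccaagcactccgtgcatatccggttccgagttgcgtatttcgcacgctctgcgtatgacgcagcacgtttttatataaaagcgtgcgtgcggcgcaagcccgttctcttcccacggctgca

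Neither run of letters occurs on either strand in the stretches shown for Rplp0, Rps16, Rps9 and Rpl22l1, although a longer window of Rps16 holds CGGAAG. RefSeq windows of 250 bases before to 50 after a start were matched for 50 of the 63 members, with 61 windows in all. Searching both strands, CGGAAG was in a window of 31 of these 50 genes, or 62%, against 18.8% of 27025 genes. The letters CTCTTTC were in 15 of 50, or 30%, against 9.28% of genes. GCCATCTT, a core bound by YY1, was in 4 of 50, or 8%, against 3.19%, and CACGTG, the E-box bound by Myc among others, was in 4 of 50, against 8.09%. The ETS core was in 16 of the 22 matched genes called higher in both treatments and in 15 of the other 28, and the pyrimidine run in 7 of 22 and 8 of 28. These matches are descriptions of letters in the window and were not tested.

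Several members are near copies of another ribosomal protein gene. The 7 listed as paralogs here are Rpl3l, Rpl7l1, Rpl10l, Rpl22l1, Rpl39l, Rps4l and Rps27l. Rpl32l, by its symbol a copy of Rpl32, was left among the other members. For the 4 measured above background (Rpl7l1, Rpl22l1, Rps4l and Rps27l) the differences ran between -0.44 and 0.04 under odor and between -0.41 and 0.11 under vehicle, and limma called 0 of 4 as deposited in either treatment. At an unadjusted p under 0.05, 0 were higher and 1 was lower in each treatment, Rps27l both times. Among the 56 other members the difference was positive for all 56 in both treatments as deposited. Rpl32l, included there, had 0.26 under odor (SE 0.16, limma adjusted p = 0.261) and 0.47 under vehicle (SE 0.16, limma adjusted p = 0.0539), called in neither. After centring the difference was positive for 33 of the 56 under odor and 37 under vehicle, and all 7 listed paralogs were negative in both. On that scale 61.6% of all probe sets were called lower under odor and 62.5% under vehicle, so a negative sign is not particular to the paralogs. Rpl39l and Rpl3l, known from testis and from heart and skeletal muscle, did not exceed the median of the negative controls in any library, and Rpl10l, also of testis, was near it at 5.95 ± 0.36 in odor titled GFP+ against 5.75 ± 0.44 in odor titled GFP- (SD, n = 4 each), so no direction is drawn for them. Probe sets of ribosomal protein genes can pick up RNA of near-identical copies and processed pseudogenes, so the assignment of signal to a single copy is uncertain.

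Rpl22, an RNA-binding protein of the 60S subunit, was called higher as deposited in both treatments, and its paralog Rpl22l1 was called in neither. The signal of Rpl22 was 13.35, 13.10, 12.63 and 12.93 in odor titled GFP+ libraries, against 12.35, 11.82, 12.27 and 12.64 in odor titled GFP- libraries, an overlap of the lowest with the highest by a small margin. The difference was 0.73 (SE 0.17, limma adjusted p = 0.00557) under odor and 0.77 (SE 0.17, limma adjusted p = 0.00424) under vehicle. Without odor pool 2 the odor value was 0.55 (limma adjusted p = 0.0502), and after centring it was 0.37 (limma adjusted p = 0.0522) under odor and 0.40 (limma adjusted p = 0.0381) under vehicle.

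The signal of Rpl22l1 was 9.77, 9.21, 8.94 and 9.05 in odor titled GFP+ libraries, against 9.73, 9.35, 9.76 and 9.55 in odor titled GFP- libraries. It was 9.22, 8.43, 9.14 and 9.09 in vehicle titled GFP+ libraries, against 9.31, 9.23, 9.04 and 9.39 in vehicle titled GFP- libraries. The groups overlapped, and the differences of -0.36 (SE 0.19, limma adjusted p = 0.211) and -0.27 (SE 0.19, limma adjusted p = 0.367) were not called as deposited. After centring they were -0.72 (limma adjusted p = 0.00424) under odor and -0.65 (limma adjusted p = 0.00838) under vehicle.

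For the 3 pairs of listed paralog and parent measured above background, the paralog's sort difference was also taken minus that of its parent in each pool. Rpl32l and Rpl32 were not among these pairs. The pairs were chosen after their values had been seen, so this is a description with no test, and centring the arrays does not move it. It averaged -1.07 ± 0.35 (SD, n = 8 pools) for Rpl22l1 minus Rpl22, below 0 in 8 of 8 pools. For Rps4l, a copy of Rps4x, it averaged -0.66 ± 0.37 (SD, n = 8 pools), below 0 in 8 of 8 pools. For Rpl7l1, a relative of Rpl7, it averaged -0.27 ± 0.29 (SD, n = 8 pools), below 0 in 7 of 8 pools. Each value includes the parent's own sort difference: Rpl7l1 itself had 0.04 under odor and 0.11 under vehicle, and Rpl7 had 0.34 in each.

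Rps27l, a copy of Rps27 that is induced by p53, had a signal of 9.05, 8.74, 8.68 and 8.34 in odor titled GFP+ libraries, against 9.23, 9.16, 8.95 and 8.92 in odor titled GFP- libraries. It was 8.82, 8.30, 8.83 and 8.45 in vehicle titled GFP+ libraries, against 9.04, 9.11, 8.75 and 9.15 in vehicle titled GFP- libraries. The groups overlapped in both treatments, although the titled GFP+ library was the lower of its pool in all 4 odor pools. The difference of -0.36 (SE 0.17, limma adjusted p = 0.135) under odor and -0.41 (SE 0.17, limma adjusted p = 0.102) under vehicle was not called as deposited, and after centring it was -0.73 (limma adjusted p = 0.00197) and -0.78 (limma adjusted p = 0.00142).

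Rps4l had a lower signal in titled GFP+ in 4 of 4 odor pools. Its signal was 8.43, 7.68, 8.14 and 7.89 in odor titled GFP+ libraries, against 8.98, 7.94, 8.54 and 8.46 in odor titled GFP- libraries. It was 9.15, 8.33, 8.47 and 8.87 in vehicle titled GFP+ libraries, against 9.12, 8.41, 8.73 and 8.55 in vehicle titled GFP- libraries. In both treatments the groups overlapped. The difference was -0.44 (SE 0.24, limma adjusted p = 0.197) under odor and 0.00 (SE 0.24, limma adjusted p = 0.995) under vehicle. After centring it was -0.81 (limma adjusted p = 0.00648) under odor and -0.37 (limma adjusted p = 0.151) under vehicle. With the pool as a replicate block the odor value as deposited was called (SE 0.12, limma adjusted p = 0.0214). The interaction of -0.45 was not called without the block (SE 0.33, limma unadjusted p = 0.196). With the block it was under 0.05 only before adjustment (SE 0.17, limma unadjusted p = 0.0244, adjusted p = 0.959).

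The parents of the other copies were called in some comparisons. Rps4x, which encodes a 40S protein from the X chromosome, was called higher under odor at 0.45 (SE 0.15, limma adjusted p = 0.0351) and missed the threshold under vehicle at 0.42 (SE 0.15, limma adjusted p = 0.0579), or passed it with the pool as a replicate block (limma adjusted p = 0.0480). Its odor call was lost without odor pool 1, 2 or 4 or vehicle pool 3 or 4 (limma adjusted p between 0.0502 and 0.170). After centring, Rps4x had 0.09 under odor and 0.05 under vehicle (limma adjusted p = 0.567 and 0.755), neither called. Rpl39, a short protein of the exit tunnel, was called in both, at 0.58 (SE 0.19, limma adjusted p = 0.0405) under odor and 0.68 (SE 0.19, limma adjusted p = 0.0193) under vehicle. Its odor call was lost without odor pool 1, 2 or 4 or vehicle pool 2, 3 or 4 (limma adjusted p between 0.0519 and 0.155) and its vehicle call without vehicle pool 1, 2 or 4 (limma adjusted p between 0.0518 and 0.131), and neither was called after centring. Rpl7 had differences of 0.34 in each (SE 0.14, limma adjusted p = 0.0898 and 0.0990) and Rpl3, which lies at the peptidyl transferase centre, 0.18 and 0.23 (SE 0.15, limma adjusted p = 0.440 and 0.338). Neither was called, and after centring both had differences below 0.

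Other genes of the translation machinery are given beside the members. Of 32 cytosolic translation factors and ribosome partners, 5 were called higher under odor and 6 under vehicle, against 11% and 10.2% of all probe sets. In both treatments 0 were called lower, against 9.86% and 7.16%, and the medians were 0.08 and 0.15 as deposited. The 5 called in both treatments were Eef1b2, the exchange factor of elongation factor 1, at 0.70 under odor and 0.83 under vehicle, Pabpc1, the poly(A)-binding protein, at 0.61 and 0.66, Fau, which encodes another 40S protein as a fusion, at 0.60 and 0.48, and Npm1 and Eef1a1 with values between 0.30 and 0.43. After centring 0 were called higher and 17 lower under odor, and 2 higher and 13 lower under vehicle, beside 61.6% and 62.5% of all probe sets called lower on that scale.

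Of 37 ribosome biogenesis genes, 1 was called higher in each treatment, against 11% of all probe sets under odor and 10.2% under vehicle. Under odor 1 was called lower, against 9.86% of all probe sets. The medians were -0.14 under odor and -0.01 under vehicle. The gene called higher was Myc, a transcription factor that drives ribosome production. It averaged 9.04 ± 0.57 in odor titled GFP+ libraries and 4.91 ± 0.24 in odor titled GFP- libraries (SD, n = 4 each), where it did not exceed the negative controls. It averaged 8.99 ± 0.49 in vehicle titled GFP+ libraries and 4.64 ± 0.11 in vehicle titled GFP- libraries (SD, n = 4 each). Set against the negative controls, Myc was higher by at least 3.59 under odor and at least 3.48 under vehicle on the log2 scale. These bounds were not tested. The test of the measured difference between the titled groups gave a limma adjusted p = 2.34e-09 under odor and 1.43e-09 under vehicle. The gene called lower was Ltv1, a 40S export factor, at -0.54 (SE 0.16, limma adjusted p = 0.0257) under odor, and it was not called under vehicle at -0.26. After centring 1 was higher and 26 lower under odor, and 1 higher and 19 lower under vehicle, with the same 61.6% and 62.5% of all probe sets lower.

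Mitochondrial ribosomal protein genes were lower where they were called. Of 76, 0 were called higher in either treatment, against 11% of all probe sets under odor and 10.2% under vehicle. Under odor 16 were called lower, against 9.86% of all probe sets. Under vehicle 4 were called lower, a smaller share than the 7.16% of all probe sets. The medians were -0.28 under odor and -0.15 under vehicle. Unadjusted, 0 were higher at p under 0.05 in either treatment. The 3 called lower in both were Mrpl46 (-0.78 and -0.65), Mrpl40 (-0.57 and -0.47) and Mrpl42 (-0.45 and -0.36). After centring 70 were lower under odor, against 61.6% of all probe sets, and 64 under vehicle, against 62.5%. Of 18 genes of translation control through mTOR and eIF2, 1 was called in each treatment, against 11% and 10.2% of all probe sets called higher. It was Eif4ebp1, the translation repressor that mTOR switches off, at 0.79 (SE 0.26, limma adjusted p = 0.0390) under odor and 0.97 (SE 0.26, limma adjusted p = 0.0141) under vehicle.

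**Figure D4:**
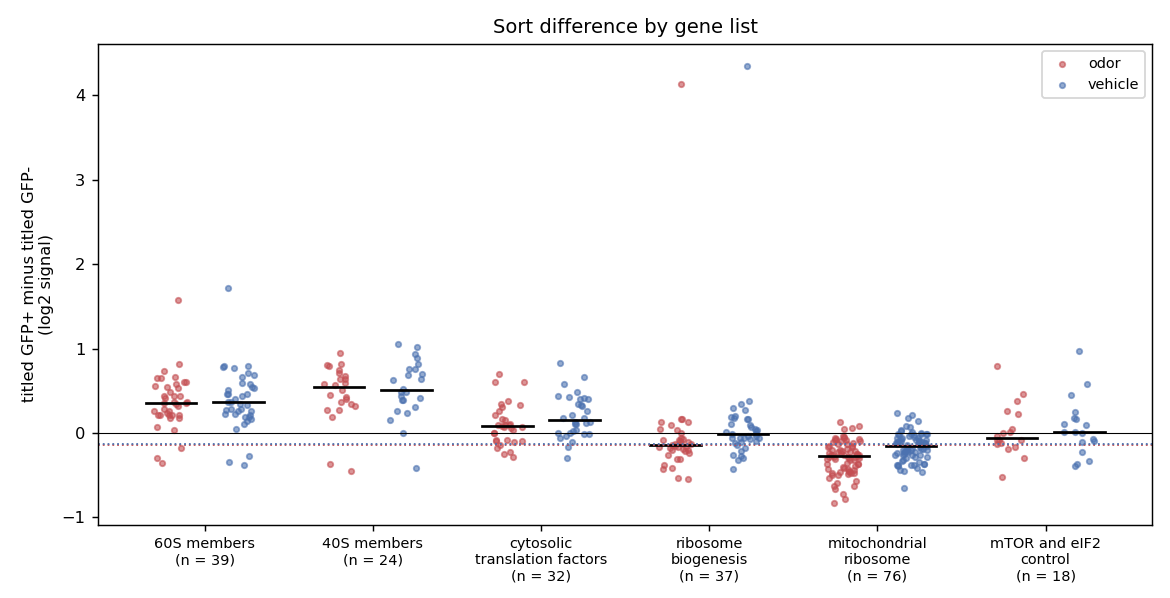
Sort difference in log2 signal as deposited (points are genes, black bars are medians, dotted lines the median over all probe sets) for 6 gene groups, with odor left of vehicle in each. The medians of the 60S and 40S genes lie between 0.35 and 0.54, and those of the mitochondrial ribosome at -0.28 and -0.15.

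No member passed the test for odor itself. In titled GFP+ libraries, odor against vehicle gave 0 called members (limma, with 1 at an unadjusted p under 0.05), against 0.00901% of all probe sets, which is 2. In titled GFP- libraries it gave 0 members (limma, with 1 at an unadjusted p under 0.05), against 0.018%, which is 4 probe sets. The interaction, which subtracts the vehicle sort difference from the odor sort difference, gave 0 members (limma, with 0 at an unadjusted p under 0.05), against 0.0045%. The median difference was 0.03 in titled GFP+, 0.06 in titled GFP- and -0.04 for the interaction, with a median SE of 0.16 for the first pair and 0.22 for the interaction. The size was under 0.2 for 57 of 63 members in titled GFP+ and for 53 in titled GFP-. With 4 arrays a group, differences well above the SE could also stay uncalled, as did Rps4l in titled GFP+ at -0.67 (SE 0.24, limma adjusted p = 0.968).

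The members with the smallest p are given as values. In titled GFP+ libraries they were Rps4l at -0.67 (SE 0.24, unadjusted p = 0.0114, limma adjusted p = 0.968) and Rpl37a, a zinc-binding protein of the 60S subunit, at 0.24 (SE 0.14, limma adjusted p = 0.968). In titled GFP- libraries they were Rpl32l at 0.36 (SE 0.16, unadjusted p = 0.0381, limma adjusted p = 1.00) and Rpl22l1 at 0.35 (SE 0.19, limma adjusted p = 1.00). For the interaction they were Rps4l and Rpl35a, a 60S protein linked in humans to Diamond-Blackfan anemia, at 0.32 (SE 0.27, limma adjusted p = 1.00). The libraries of Rps4l overlapped in titled GFP+, where the highest odor library had 8.43 against 8.33 in the lowest vehicle library.

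The sort differences of the 63 members in the odor pools and in the vehicle pools, which are separate mice, had a Pearson r of 0.94 across genes, given as a description because genes share the arrays and are not independent replicates.

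**Figure D5:**
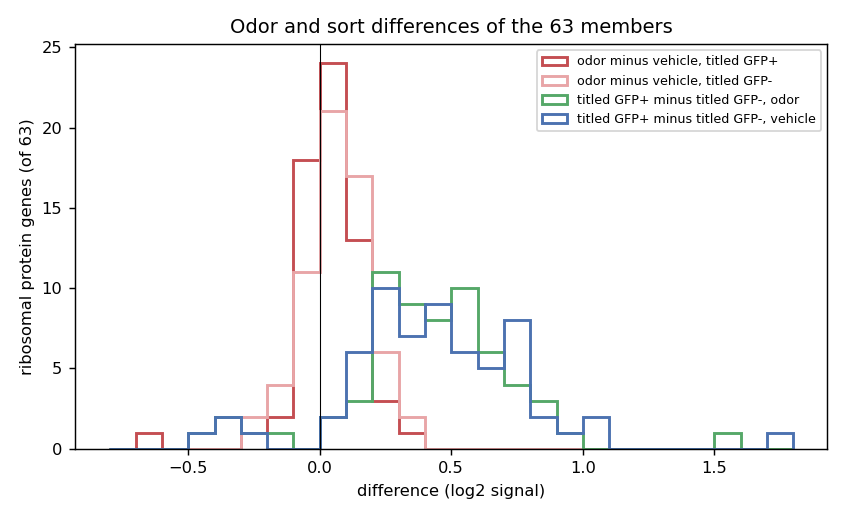
Number of the 63 ribosomal protein genes (y axis) by difference in log2 signal as deposited (x axis, bins of 0.1), for odor minus vehicle in each titled sort and for titled GFP+ minus titled GFP- in each treatment. The odor differences gather around 0, with medians of 0.03 and 0.06, and the sort differences have medians of 0.42 and 0.44.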

How the data were processed

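The authors deposited log2 signals, 1 per probe set and array, and the submitters' processing notes name Affymetrix Expression Console. The sources used here give neither its version nor the background correction and normalization applied. Per the labels' protocols, biotinylated cRNA was prepared from 50 to 100 ng of total RNA. Of 28846 probe sets, 6640 are controls (5222 negative controls) and were left out, which leaves 22206. No arrays were duplicates (highest correlation 0.9944). The annotation names 19572 probe sets, and the 63 members were all found in RefSeq under the same symbol. Array build is not given, so only RefSeq promoter coordinates are printed.

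Differences were fitted with limma 3.58.1 (R 4.3.3), with lmFit on 4 group means of 16 arrays and eBayes without trend (12 residual degrees of freedom, prior 4.49), Benjamini-Hochberg adjusted over the 22206 probe sets, threshold 0.05. The procedure was tested on simulated data. Members, gene lists and marker lists were chosen with earlier results of these data known. Named members are the largest differences called in both treatments on either scale, the stalk proteins, Rpsa, the paralogs with their parents, and the 2 members with the smallest p for odor. Of the other lists up to 3 called genes are named, with exceptions named after their values were seen. These are Npm1, Eef1a1, Camp, Itgam, Cdk1, Neurog1, Cd3g, Krt5, Krt14, Trp63, Cdh5, Col1a2, Col3a1, Fau and the member Rpl41.

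The libraries of a pool come from the same mice, and their deviations from group means correlated at 0.158 to 0.399 in all 8 pools, so pool was an alternative block. A level not above the negative controls is not above the median of the 5222 negative controls of its array. A difference against such a group is a lower bound, set against that median. Alternatives were median centring, quantile normalization, centring on 14 mature neuron markers, the pool as a replicate block, trend and robust eBayes, leaving out dim probe sets (14395 kept, above that median in at least 4 arrays) and leaving out each pool. Motifs were exact matches on both strands of RefSeq windows.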

Additional observations from a re-analysis of the deposited data

Results flagged for a closer look

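Of 104 groups of 4 libraries tested, 6 held a library far from the other 3 by Dixon's criterion, and chance gives about 1 in 20. Rpl22l1 had 8.43 in vehicle titled GFP+ library 2, against 9.09 to 9.22 in the others of that group. Rpl35a had 8.78 in the same library, against 9.41 to 9.53. Rpl37a had 12.26 in odor titled GFP+ library 1, against 11.84 to 11.86. Rpl39 had 10.69 in odor titled GFP- library 2, against 11.20 to 11.28, and 11.95 in vehicle titled GFP+ library 1, against 11.36 to 11.42. Rplp0 had 9.82 in vehicle titled GFP- library 1, against 10.27 to 10.32.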

How the results depend on the processing

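Scaling and single pools moved the counts. Median centring left 12 members called under odor and 15 under vehicle, with medians of 0.052 and 0.067, and with the replicate block added 15 and 19. Centring on mature neuron markers gave 50 called under odor, with medians of 0.73 under odor and 0.67 under vehicle. Leaving out a pool gave 11 to 31 called under odor and 14 to 32 under vehicle, with medians of 0.34 to 0.48 and 0.36 to 0.48. Centring without odor pool 1, chosen after seeing the data, gave 8 under odor. Quantile normalization, the replicate block alone, trend and robust eBayes and the dim filter kept all 32 and 30 calls and added up to 5 higher and 1 lower. For odor against vehicle, leaving out a pool gave 0 called members each time, with medians of -0.06 to 0.11 in titled GFP+, 0.01 to 0.15 in titled GFP- and -0.10 to 0.04 for the interaction. Under median centring, with or without the block, these values turned negative: Rpl10l (-0.16 in both treatments), Rpl3 (-0.19 under odor, -0.15 under vehicle), Rpl7 (-0.024 and -0.027), Rpl7l1 (-0.33 and -0.26) and, under vehicle, Rps4l (-0.37). Quantile normalization turned Rpl10l (-0.086 and -0.042) and, under vehicle, Rps4l (-0.12). Mature marker centring turned Rpl39l (0.13) and Rpl3l (0.019) under odor. Leaving out a pool turned Rpl7l1 (range -0.0031 to 0.055 under odor, lowest without odor pool 1, and -0.042 to 0.21 under vehicle, lowest without vehicle pool 4) and Rps4l under vehicle (-0.10 to 0.088, with -0.0046 without pool 1 and the lowest without pool 4). None of these was called as deposited, and the cause was not tested. The replicate block raised Rps4l under odor and Rps4x under vehicle past the threshold. It also called Rpl14, Rpl17, Rpl35 and Rpl36 higher under odor and Rpl11 higher under vehicle. Rpl14, Rpl17, Rpl35 and Rps4x, called under a single treatment without the block, were then called in both. Odor and vehicle libraries with the same number share only a number in the labels. The correlations of their deviations were 0.259, 0.278, 0.259 and 0.174 in titled GFP+ and 0.106, 0.406, 0.198 and 0.0729 in titled GFP-, the last under the 0.1 needed to take the numbers as pairs. As a hint from the data, 3 of 4 odor and 4 of 4 vehicle libraries in titled GFP+, and 3 of 4 of each in titled GFP-, correlated best with their own number. With the number as a replicate block, odor against vehicle gave 0 called members in either sort (limma, with 1 at an unadjusted p under 0.05 in each). Each member has 1 probe set, so the alternative of using all probe sets gave the same values. Signal near the negative controls limits Rpl39l, Rpl3l and Rpl10l.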
